A study of Mus musculus with 6 samples.

Results

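The histone genes of resting splenic CD8+ T cells (CD8-TC) that lacked Runx3 were compared with those of WT CD8-TC, probe set by probe set. A probe set is a group of array probes summarised as 1 value, and it was taken as a member when one of its gene symbols began with Hist1h, Hist2h, Hist3h, Hist4h, H2af, H3f3 or H1f. The platform annotation used here gives most histone genes under current names such as H4c14, so older symbols were looked up through each gene's Entrez identifier. The rule as written took 18 probe sets, and 61 more matched through an older symbol only. In all, 79 of the 35399 probe sets of the value table were members, and they named 83 histone genes. Of these probe sets 56 named only clustered (Hist) genes, 21 only variant genes and 2 genes of both kinds. As many as 33 of the 79 listed more than 1 symbol, because copies of a histone gene are nearly alike, so that the signal of such a probe set cannot be assigned to 1 gene.

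RNA came from freshly isolated, unstimulated spleen cells of male ICR mice aged 6 weeks, as 3 Runx3-/- and 3 WT samples, with 1 Affymetrix mouse Gene 1.0 ST array per sample. ICR mice are outbred, so that genetic background also varies from mouse to mouse. The labels and methods used here speak of biological repeats but do not say whether an array held RNA of 1 mouse or of several. Runx3 is a Runt-domain transcription factor that CD8-TC use. Runx3-/- cells were taken on anti-CD8 beads and then sorted to remove CD11c+ dendritic cells, whereas the treatment label gives bead selection alone for WT cells. Another label speaks of sorting throughout, and where the steps did differ they cannot be told apart from the genotype.

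The Runx3 probe set itself read 7.06, 7.17 and 7.64 in Runx3-/- arrays and 7.09, 7.30 and 6.99 in WT arrays, on the log2 scale of the deposited signals. No fall of that signal was detected (difference 0.16 ± 0.16 SE, limma adjusted p = 0.559), and where its probes lie relative to the deleted part is not known here, so it does not check the labels. The T cell label itself held up in both groups. Cd8a, a chain of the CD8 co-receptor, read 11.17, 11.10 and 10.91 in Runx3-/- arrays and 11.14, 11.10 and 11.05 in WT arrays, and none of the 7 CD8-TC markers tested passed the threshold. Markers of other cells did differ. All 11 B cell markers, all 12 macrophage markers and 5 of 9 erythroid markers tested were lower in Runx3-/- arrays, and 1 erythroid marker, Gata1, was higher. The summed linear signal of the B cell markers lay between 213 and 284 in Runx3-/- arrays and between 1201 and 1862 in WT arrays. The macrophage sums lay between 257 and 499 in Runx3-/- arrays and between 2596 and 2703 in WT arrays, and the erythroid sums between 267 and 286 in Runx3-/- arrays and between 491 and 724 in WT arrays. What part those cells had in any histone value below was not tested. In such bulk RNA, fewer cells of a type and less RNA per cell cannot be told apart.

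Histones are the proteins around which DNA is wound. H2A, H2B, H3 and H4 form the core particle, and H1 binds the linker DNA between particles. Clustered histone genes lie in groups, are transcribed mainly while DNA is being replicated, and give mRNAs that end in a stem-loop in place of a poly(A) tail. Replacement variants such as H3.3 and H2A.Z come from other genes, with polyadenylated mRNAs, and are made throughout the cell cycle. Resting T cells are for the most part not dividing. The labelling kit of these arrays covers whole transcripts, and such kits prime at random positions rather than at a poly(A) tail.

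The 250 bases before the transcription start are shown for 3 clustered genes and for H3f3a, a variant gene, as a contrast. The probe sets of these 3 clustered genes were lower in Runx3-/- arrays at an unadjusted limma p under 0.05. Hist2h4, the only histone gene called below, met that limit too but had no entry among the promoters used here. The sequences come from RefSeq on build GRCm38.p6 and read 5′ to 3′ on the strand of the gene. Hist1h1a lies at chr13:23763418-23763667 on the plus strand, Hist1h1c at chr13:23738557-23738806 on the plus strand, Hist4h4 at chr6:136804432-136804681 on the minus strand and H3f3a at chr1:180813606-180813855 on the minus strand. Capitals mark matches on either strand to 5 motifs, which are TATAAA (the core promoter box bound by TBP), CCAAT (the box bound by NF-Y), GGTCCG (part of the element shared by H4 promoters), AAACACA (the H1 box) and the RUNX core TGNGGN, in which each N was allowed to be T or C only.
Hist1h1a: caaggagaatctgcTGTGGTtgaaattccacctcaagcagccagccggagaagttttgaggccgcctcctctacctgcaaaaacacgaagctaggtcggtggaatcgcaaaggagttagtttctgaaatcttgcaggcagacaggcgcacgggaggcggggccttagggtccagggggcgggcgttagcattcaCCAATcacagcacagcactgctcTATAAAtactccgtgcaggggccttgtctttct
Hist1h1c: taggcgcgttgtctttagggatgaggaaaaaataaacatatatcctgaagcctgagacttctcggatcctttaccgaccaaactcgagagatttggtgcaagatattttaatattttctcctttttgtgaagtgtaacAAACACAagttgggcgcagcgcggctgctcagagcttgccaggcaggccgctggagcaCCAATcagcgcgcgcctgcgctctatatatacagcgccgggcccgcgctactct
Hist4h4: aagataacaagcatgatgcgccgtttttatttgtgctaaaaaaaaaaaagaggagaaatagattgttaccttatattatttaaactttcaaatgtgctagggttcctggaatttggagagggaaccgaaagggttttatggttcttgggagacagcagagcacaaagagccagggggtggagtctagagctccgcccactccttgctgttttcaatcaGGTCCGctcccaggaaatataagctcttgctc
H3f3a: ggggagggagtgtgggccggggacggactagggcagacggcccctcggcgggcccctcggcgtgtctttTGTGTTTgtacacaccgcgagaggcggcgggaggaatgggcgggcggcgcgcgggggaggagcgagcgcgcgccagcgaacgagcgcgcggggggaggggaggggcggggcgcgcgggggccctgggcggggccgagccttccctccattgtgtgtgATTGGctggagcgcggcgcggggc

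Both H1 genes carried CCAAT at nearly the same place, its first base 56 bases before the start in Hist1h1a and 54 in Hist1h1c. Hist1h1a also had TATAAA from base 33 before the start and a RUNX core from base 236, and Hist4h4 had GGTCCG from base 32. AAACACA, the H1 box, stood from base 112 in Hist1h1c and was not matched in Hist1h1a. H3f3a, the variant gene, had CCAAT from base 24 and AAACACA from base 181, both on the other strand. Among the 74 histone genes of the 83 that were in the promoter table, 62 were clustered. TATAAA stood in 29 of the 62 clustered and in 1 of the 12 variant promoters, against 13.0% of all 27025 genes in the table. CCAAT stood in 51 clustered and 7 variant promoters, against 34.5% of all genes. The RUNX core stood in 24 of the 62 clustered promoters (38.7%) and in 3 of the 12 variant promoters, against 37.9% of all genes, so that it was no more frequent upstream of histone genes than elsewhere. These letters describe the sequence and are no evidence of binding, and opposing histone genes can share 1 upstream stretch.

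Of the 79 histone probe sets, 65 reached the array median in at least 1 array and were tested, 51 of them clustered, 12 variant and 2 mixed. Across all 12049 probe sets tested with limma, 10.1% passed an adjusted p of 0.05, 5.31% with a lower signal in Runx3-/- cells and 4.82% with a higher one. Only 1 of the 65 histone probe sets passed, Hist2h4, which was lower in Runx3-/- cells, and no histone probe set was higher. A share of 1 in 65 lies below the background, so that calls did not gather among histone probe sets. Clustered probe sets also varied more between replicates, with a median SE of 0.24 against 0.11 over all probe sets tested. A change of a given size was therefore less likely to pass in them, and the low share does not show that they were unchanged. At an unadjusted p under 0.05, 8 were lower, against 14.0% of all probe sets, and 1 was higher, which makes 9 in either direction, against 27.4% of all. A change of at least 1.5-fold with an unadjusted p under 0.05 was met by 2, Hist2h4 and Hist1h1a, both lower, against 7.98% of all probe sets in either direction and 4.82% lower. The 3 Runx3-/- arrays lay apart from the 3 WT arrays for 6 histone probe sets, all lower, against 34.3% of all probe sets in either direction and 17.7% lower. The direction was nevertheless one-sided. The difference (Runx3-/- minus WT, log2) was below 0 for 59 of the 65, against 51.1% of all probe sets tested, and the median was -0.20 against -0.01. The median was -0.21 over the 51 clustered and -0.20 over the 12 variant probe sets, of which 48 and 9 lay below 0. Many of the clustered probe sets read the same transcripts, and so do some variant ones. The 4 tested H3f3a probe sets were among the 8 lower at an unadjusted p under 0.05 and among the 6 without overlap. When all probe sets with the same symbols were averaged first, 29 of 32 clustered values lay below 0 with a median of -0.18. Of the variant values 5 of 7 lay below 0, with a median of -0.19. The clustered averages are not independent either. Some still share genes, and Runx3-/- replicate 1 was the highest Runx3-/- array in 28 of the 32.

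**Figure D1:**
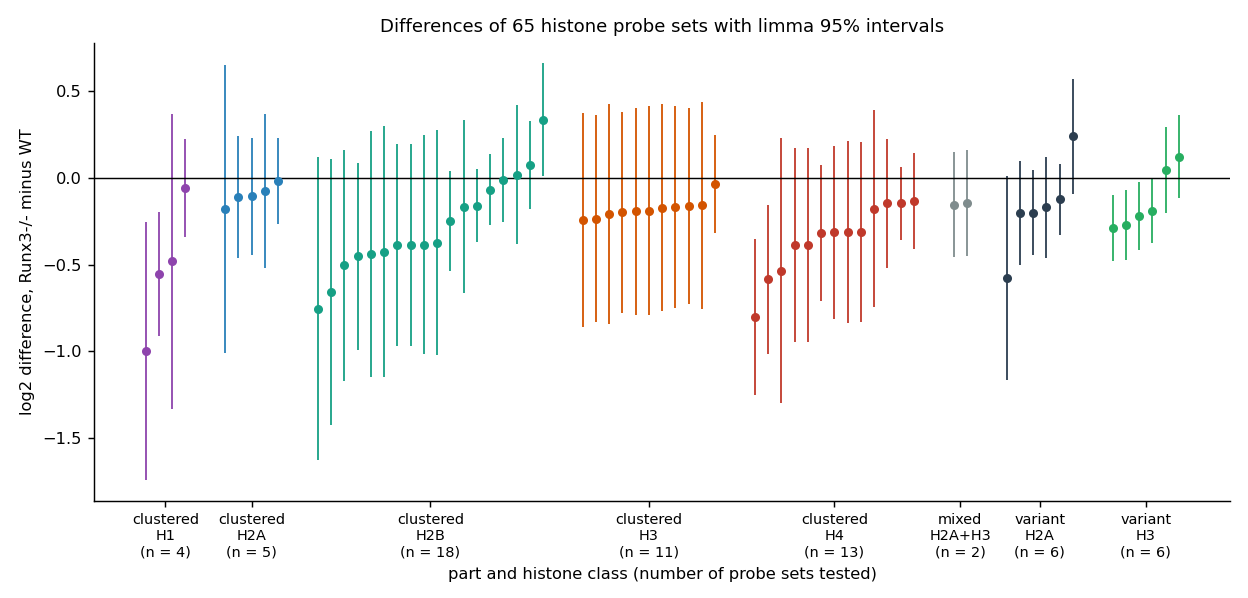
Each point is the log2 difference, Runx3-/- minus WT, of 1 of the 65 histone probe sets tested, and the bar is its 95% interval from limma, ordered by part and histone class along the x axis. Most points lie below 0, yet most intervals reach 0, and only the lowest H4 point, Hist2h4, passed the adjusted threshold.

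Clustered genes read unevenly within a genotype. The mean log2 signal of the 51 clustered probe sets was 7.11, 6.48 and 6.45 in Runx3-/- replicates 1, 2 and 3, against 7.04, 6.71 and 7.12 in WT replicates 1, 2 and 3. Runx3-/- replicate 1 thus read like WT replicates 1 and 3, while Runx3-/- replicates 2 and 3 were low, and WT replicate 2 was the lowest WT array. Runx3-/- replicate 1 was the highest Runx3-/- array for 47 of the 51 clustered probe sets (92.2%), against 34.9% of all probe sets tested. WT replicate 2 was the lowest WT array for 47 of the 51, against 31.8% of all. The median range over the 3 Runx3-/- arrays was 0.90 for clustered probe sets, against 0.24 over all probe sets. The 12 variant probe sets did not share this spread: their means were 8.41, 8.36 and 8.38 in Runx3-/- arrays and 8.56, 8.50 and 8.55 in WT arrays, with a median Runx3-/- range of 0.21. Over all tested probe sets the means were 6.03, 6.06 and 5.98 in Runx3-/- arrays and 6.06, 6.06 and 6.05 in WT arrays, and Runx3-/- replicate 1 correlated with the other Runx3-/- arrays at 0.991, across probe sets, which are not independent replicates. The deposited values were normalized by RMA, which evens out the arrays, so means over all probe sets could hardly show an array-wide step. A correlation over all tested probe sets says little about 51 of them. Nothing is concluded from either about where the clustered steps came from.

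**Figure D2:**
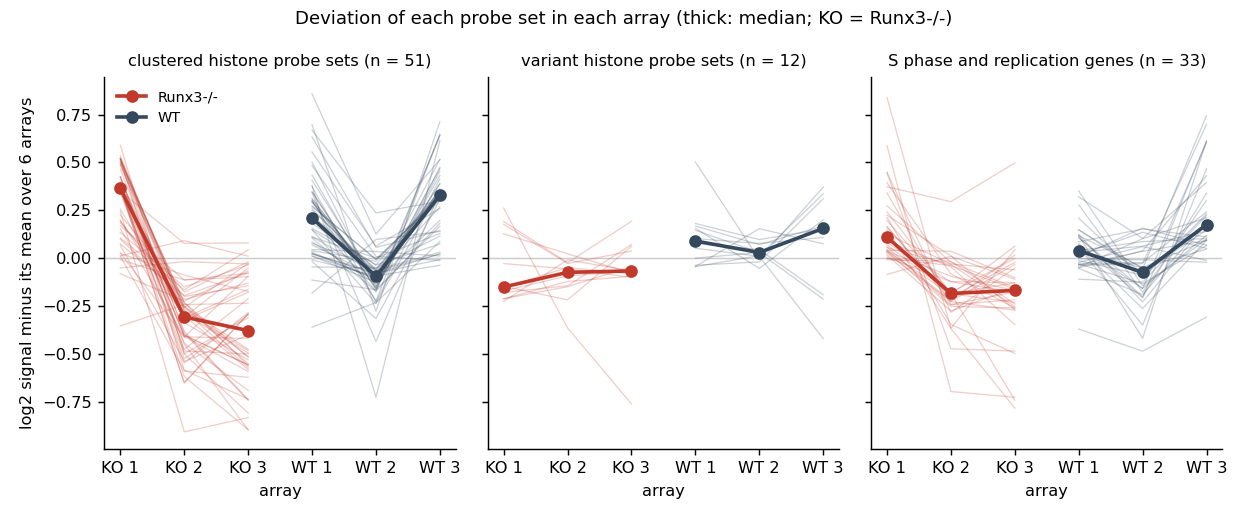
Each thin line is 1 probe set, drawn as its log2 signal minus its own mean over the 6 arrays, for 51 clustered histone probe sets, 12 variant histone probe sets and 33 genes of S phase and replication, with Runx3-/- arrays (KO) left and WT arrays right, and thick lines are medians. Clustered probe sets are high in Runx3-/- replicate 1 and low in Runx3-/- replicates 2 and 3, the replication genes run the same way with smaller steps, and the variants, apart from H2afx with the lowest thin line, show no such common steps.

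Among the H4 genes, Hist2h4 (H4c14, probe set 10500333, chromosome 3) carried the 1 call. It read 7.94, 7.34 and 7.30 in Runx3-/- arrays and 8.60, 8.16 and 8.22 in WT arrays. The groups did not overlap, with the highest Runx3-/- array below the lowest WT array. Means were 7.53 ± 0.36 in Runx3-/- cells and 8.33 ± 0.23 in WT cells (SD, n = 3 each), a difference of -0.80 ± 0.19 SE with a 95% interval from -1.25 to -0.35, or 1.74-fold lower (limma adjusted p = 0.0416). The call held without Runx3-/- replicate 1, its highest Runx3-/- array, where the difference was -1.01. Leaving out that array had to make the difference more negative, so the call in that fit is no separate support. Leaving out any other array raised the limma adjusted p to between 0.0585 and 0.13. Hist4h4 (H4f16, probe set 10548857, chromosome 6), another H4 gene, read 6.41, 5.81 and 5.95 in Runx3-/- arrays and 6.90, 6.41 and 6.61 in WT arrays. Here the highest Runx3-/- array, replicate 1, just overlapped the lowest WT array, and the difference of -0.58 ± 0.18 SE did not pass (limma adjusted p = 0.0899). It is named, as are Hist1h1c, Hist1h1d, Hist2h2be and Hist1h4f below, after its values were seen.

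The brightest H4 probe set (10404067) listed 11 genes of the large cluster on chromosome 13. It read 10.17, 9.33 and 9.52 in Runx3-/- arrays and 9.99, 9.79 and 10.18 in WT arrays, so that Runx3-/- replicate 1 lay with the WT arrays and the groups overlapped. The difference was -0.31 ± 0.21 SE, and its 95% interval ran from -0.81 to 0.19. All 13 H4 probe sets had differences below 0, between -0.80 and -0.13. Every one of them was highest, among the Runx3-/- arrays, in replicate 1.

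The linker histones had the largest single difference. Hist1h1a (H1f1, probe set 10404069, chromosome 13), which encodes the H1.1 subtype, read 6.91, 5.76 and 5.83 in Runx3-/- arrays and 7.52, 6.79 and 7.18 in WT arrays. Runx3-/- replicates 2 and 3 lay below every WT array, and replicate 1 fell between WT replicates 2 and 3. The difference was -0.998 ± 0.32 SE with a 95% interval from -1.74 to -0.25, and it did not pass (limma adjusted p = 0.0931). Hist1h1c (H1f2, probe set 10404059), the H1.2 gene, read 4.27, 4.38 and 4.38 in Runx3-/- arrays and 5.25, 4.68 and 4.76 in WT arrays. It was 1 of the 4 clustered probe sets tested in which replicate 1 was not the highest Runx3-/- array, and its groups did not overlap. Its difference of -0.56 ± 0.15 SE fell short of the threshold (limma adjusted p = 0.0608). Hist1h1b (H1f5, probe set 10408081), the H1.5 gene and the brightest H1 probe set, read 8.32, 7.23 and 6.93 in Runx3-/- arrays and 8.03, 7.51 and 8.38 in WT arrays. Its Runx3-/- arrays spanned 1.40 log2 units and enclosed 2 of the 3 WT values. Hist1h1d, the H1.3 gene, differed by -0.06 ± 0.12 SE near the array median.

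**Figure D3:**
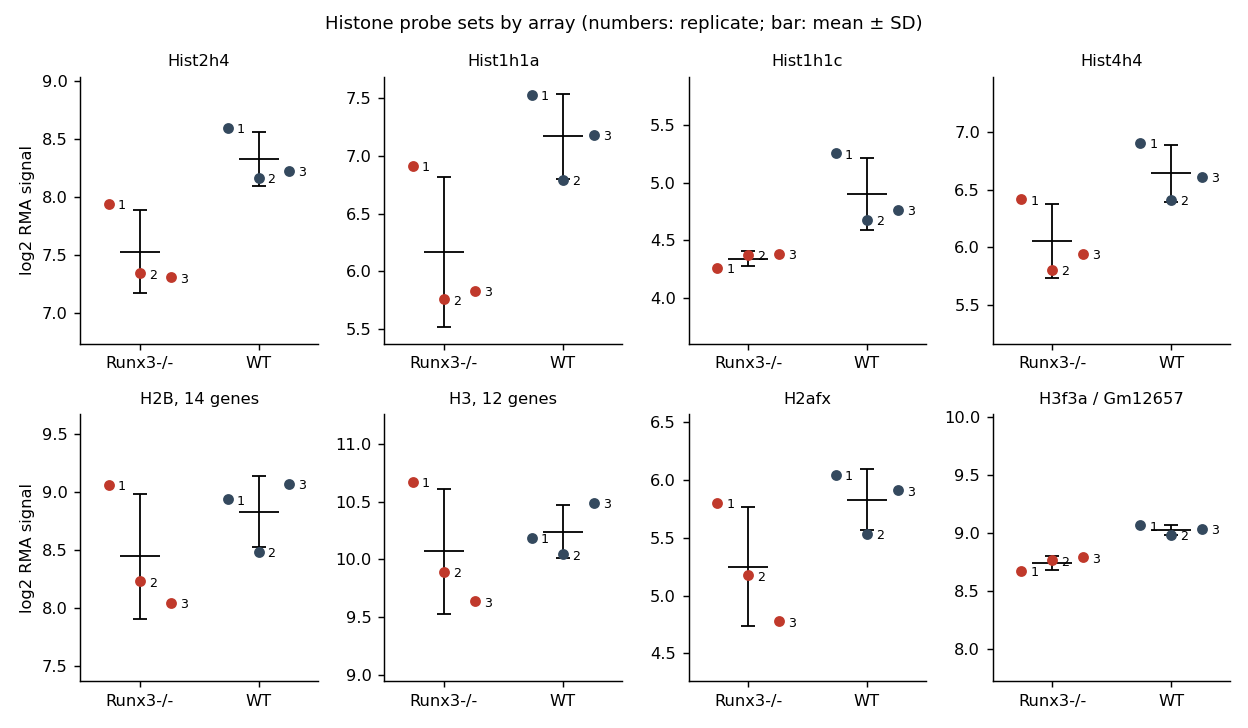
Each panel gives the log2 RMA signal of 1 histone probe set in 3 Runx3-/- arrays (left) and 3 WT arrays (right), numbered by replicate, with the mean and SD as a bar, and every panel spans the same log2 range. Hist2h4, Hist1h1c and H3f3a show no overlap between genotypes, whereas Runx3-/- replicate 1 lies among the WT arrays for the shared H2B probe set and above all of them for the shared H3 probe set.

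H2B, with 18 tested probe sets, had a median difference of -0.38. Its brightest probe set (10408070) listed 14 H2B genes and read 9.06, 8.23 and 8.04 in Runx3-/- arrays and 8.93, 8.48 and 9.07 in WT arrays, a difference of -0.39 ± 0.27 SE. Runx3-/- replicate 1 again lay with the highest WT arrays, and the groups overlapped. All 7 H2B probe sets with several symbols differed by between -0.51 and -0.37, and 2 of them carried identical values. The 11 probe sets with a single H2B symbol ran from -0.75 to 0.34, with 8 below 0. Their median was -0.16, against -0.39 for the 7 with several symbols, so repeated readings of shared genes weigh on the class median. Hist2h2be (H2bc21, probe set 10494388, chromosome 3) was the only histone probe set higher in Runx3-/- cells at an unadjusted p under 0.05. It read 4.02, 3.75 and 3.75 in Runx3-/- arrays and 3.31, 3.44 and 3.76 in WT arrays, which overlap by WT replicate 3, close to the array median. The difference of 0.34 ± 0.14 SE did not pass (limma adjusted p = 0.167).

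The clustered H2A and H3 genes had smaller median differences, -0.11 and -0.19, than the clustered H4 genes at -0.31. Hist1h2ak (H2ac15, probe set 10408077), the brightest clustered H2A probe set, read 6.32, 5.61 and 5.75 in Runx3-/- arrays and 6.03, 5.76 and 6.11 in WT arrays, and the difference was -0.08 ± 0.19 SE. The 5 H2A probe sets tested lay between -0.18 and -0.02. For H3, 10 of the 11 tested probe sets listed the same 12 genes. The brightest (10404065) read 10.67, 9.89 and 9.64 in Runx3-/- arrays and 10.19, 10.04 and 10.49 in WT arrays. The Runx3-/- arrays thus held both the highest and the 2 lowest values of the 6, and the difference of -0.17 ± 0.26 SE, with a 95% interval from -0.77 to 0.43, includes differences in both directions. Across the 10 shared H3 probe sets the differences lay between -0.24 and -0.16.

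H3.3, the replacement H3 that is laid down outside replication, comes from H3f3a and H3f3b. The 4 tested H3f3a probe sets, which also list Gm12657, had differences of -0.29, -0.27, -0.22 and -0.19, and none passed (limma adjusted p between 0.0667 and 0.169). The one with the lowest p, probe set 10360679, did pass under 2 of the alternatives, with an intensity trend (adjusted p = 0.0368) and with no filter on signal (adjusted p = 0.0479). It read 8.68, 8.77 and 8.79 in Runx3-/- arrays and 9.07, 8.99 and 9.04 in WT arrays. All 4 were without overlap, every Runx3-/- array below every WT array, against 17.7% of all probe sets tested that had a lower signal and no overlap. Since the 4 probe sets list the same genes, they are not independent. Replicates were tight, with an SD of 0.06 in Runx3-/- cells and 0.04 in WT cells for 10360679, and its fold was 1.22. H3f3b encodes the same protein, and its 2 probe sets, which also list Gm6485, differed by 0.12 ± 0.10 and 0.05 ± 0.11 SE (limma adjusted p = 0.477 and 0.809). The second of these (10500896) lay on either side of 0 when single arrays were left out. The brighter of them (10393058) read 10.20, 9.997 and 10.06 in Runx3-/- arrays and 10.03, 10.05 and 9.81 in WT arrays, with overlap.

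Among the H2A variants none passed. H2afx, the variant phosphorylated at DNA breaks and one whose transcripts can end in either manner, read 5.80, 5.17 and 4.78 in Runx3-/- arrays and 6.04, 5.53 and 5.91 in WT arrays. It was the variant member that followed the clustered order, high in Runx3-/- replicate 1 and lowest among WT arrays in replicate 2, and its difference was -0.58 ± 0.25 SE (limma adjusted p = 0.192). H2A.Z, found at promoters, has a gene in H2afz and one in H2afv. Both H2afz probe sets had values below 0, -0.20 ± 0.13 and -0.17 ± 0.13 SE, while H2afv stood at 0.24 ± 0.14 SE, and all overlapped between genotypes. H2afy, which encodes macroH2A1, a variant with a large extra domain, differed by -0.12 ± 0.09 SE. H2afj, the H2A.J gene, differed by -0.20 ± 0.11 SE. The 2 mixed probe sets, which list 19 and 20 clustered and variant genes, differed by -0.15 and -0.14 and ran with the clustered order.

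The 14 members below the filter were dim in every array, at most 3.41. They comprised 5 clustered probe sets (Hist1h1t and Hist1h2aa, known from the testis, Hist1h3d, Hist2h3c2 and 1 shared by an H1 and an H2B gene) and 9 variant ones. The variants were H1f7, known from spermatids, H1f8, known from oocytes, H1f10, H2afy2 (macroH2A2), H2afy3, a single-symbol H3f3a probe set and 3 matched through H2afb1, a short H2A known from the male germline. Their differences lay between -0.16 and 0.21, with 8 above 0. Only H2afy2 had no overlap, at 3.12, 3.02 and 3.01 in Runx3-/- arrays and 2.87, 2.77 and 2.87 in WT arrays, levels at which background cannot be separated from signal here.

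Each of the 6 arrays was left out in turn, and the fit without Runx3-/- replicate 1 is given here in full because the clustered values of that array stood apart. The median clustered difference was then -0.49, with 49 of 51 below 0, and the median variant difference -0.15, against -0.02 over the 11964 probe sets then tested. That array was the highest Runx3-/- array for most clustered probe sets, so leaving it out had to lower their differences. The values and calls of this fit therefore show how much rests on that array and are no separate support for a lower signal. In that fit 5 histone probe sets passed, all lower, against 4.02% of all probe sets called lower. They were Hist1h1a (-1.37, limma adjusted p = 0.0138), Hist2h4 (-1.01, 0.0131), Hist1h4f, an H4 gene of the large cluster (-0.93, 0.0387), H2afx (-0.85, 0.0444) and Hist4h4 (-0.76, 0.0359). Without each of the other 5 arrays no histone probe set passed, with 4 to 16 at an unadjusted p under 0.05. The number of calls, 1 with all 6 arrays, thus changed whichever array was left out.

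**Figure D4:**
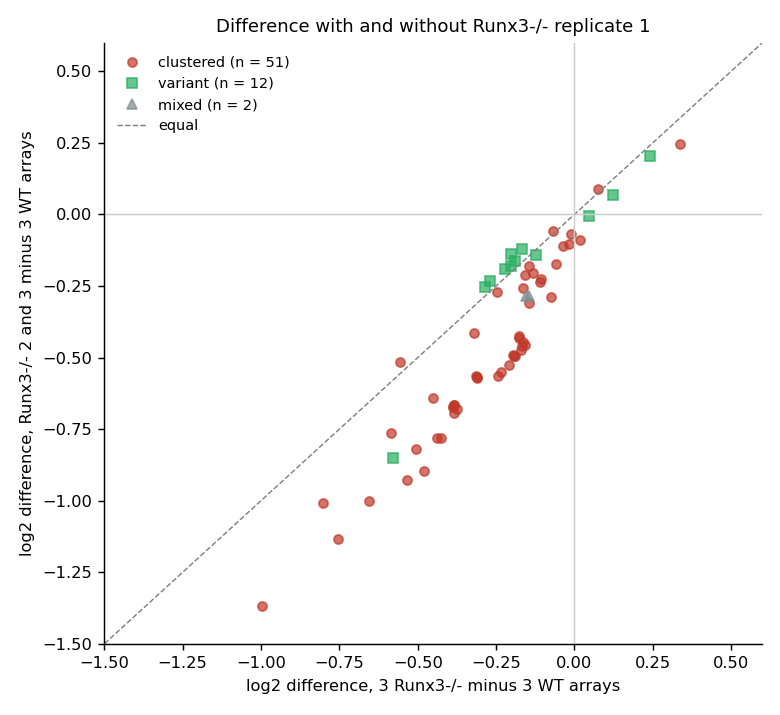
The x axis gives the log2 difference of the 65 histone probe sets over all 3 Runx3-/- arrays and the y axis the same without Runx3-/- replicate 1, both against 3 WT arrays, with the dashed line marking equal values. Nearly all clustered points lie below the line, whereas most variant points lie on or just above it, and H2afx, the lowest variant point, lies with the clustered ones. A point lies below the line wherever replicate 1 read above the mean of the other Runx3-/- arrays, so the clustered shift follows from leaving it out.

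Genes that act on histone mRNA were mostly level. Of 14 tested genes of histone mRNA transcription and processing none passed, and the median difference was -0.03. Slbp, whose protein binds the stem-loop of clustered histone mRNA, had the lowest p. It read 6.46, 6.26 and 6.15 in Runx3-/- arrays and 7.05, 6.56 and 6.61 in WT arrays, without overlap, and its difference of -0.44 ± 0.15 SE did not pass (limma adjusted p = 0.109). Next came Ncbp2, a subunit of the cap-binding complex (-0.30 ± 0.14 SE), Hinfp, an H4 promoter factor (0.16 ± 0.13 SE), and Cpsf2, of the cleavage machinery (-0.15 ± 0.14 SE). Npat, the coactivator of clustered histone transcription, differed by -0.03 ± 0.20 SE. Among 29 histone chaperone genes none passed either, with a median of -0.05. The lowest p values belonged to Daxx, a chaperone of H3.3 (0.23 ± 0.08 SE, limma adjusted p = 0.13), Nap1l1, of H2A and H2B (-0.25 ± 0.10 SE, adjusted p = 0.148), Chaf1b, of the replication-coupled assembly factor CAF-1 (-0.25 ± 0.11 SE), and Tonsl (0.25 ± 0.13 SE).

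The genes of S phase and replication ran through the arrays in the clustered order. Their mean log2 signal over 33 tested genes was 5.49, 5.14 and 5.12 in Runx3-/- arrays and 5.37, 5.23 and 5.54 in WT arrays. Runx3-/- replicate 1 was the highest Runx3-/- array for 30 of the 33 and WT replicate 2 the lowest WT array for 21, against the 34.9% and 31.8% of all probe sets given above. Mki67, a proliferation marker named after its values were seen, read 6.03, 4.74 and 4.71 in Runx3-/- arrays and 5.58, 5.38 and 6.18 in WT arrays. Top2a, a topoisomerase of dividing cells named in the same way, read 6.12, 4.91 and 4.50 in Runx3-/- arrays and 5.40, 4.86 and 5.89 in WT arrays. Both were thus high in Runx3-/- replicate 1, low in Runx3-/- replicates 2 and 3, and overlapping between genotypes. Over the 33 genes the median difference was -0.15, 27 lay below 0, and 1 passed. That was Cdk2, a kinase of S phase entry, which was higher at 7.04, 6.96 and 7.16 in Runx3-/- arrays against 6.29, 6.18 and 6.36 in WT arrays (0.78 ± 0.09 SE, limma adjusted p = 0.00312) and did not follow the clustered order. Mcm3, a subunit of the replicative helicase (-0.55 ± 0.21 SE, limma adjusted p = 0.138), Ccne1, which encodes cyclin E1 (-0.23 ± 0.10 SE, adjusted p = 0.192), and Mcm6, another helicase subunit (-0.28 ± 0.14 SE, adjusted p = 0.258), did not pass. The share of dividing cells was not measured, and its part in the clustered histone values was not tested.

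The marker lists of CD8-TC and of other cells were set beside the clustered order array by array. The mean log2 signal of the CD8-TC markers was 10.18, 10.05 and 9.96 in Runx3-/- arrays and 10.1, 10.03 and 9.82 in WT arrays. Runx3-/- replicate 1 was the highest Runx3-/- array for 6 of the 7 CD8-TC markers tested, and WT replicate 2 was the lowest WT array for 0. The mean log2 signal of the B cell markers was 4.13, 4.05 and 4.29 in Runx3-/- arrays against 6.31, 6.74 and 7.04 in WT arrays, and that of the macrophage markers 4.196, 4.69 and 4.96 in Runx3-/- arrays against 7.41, 7.38 and 7.18 in WT arrays. Within Runx3-/- arrays the macrophage markers were thus lowest in replicate 1, where clustered histones were highest. The erythroid markers averaged 3.95, 3.82 and 3.87 in Runx3-/- arrays and 5.51, 4.88 and 5.15 in WT arrays, so that Runx3-/- replicate 1 was the highest Runx3-/- array and WT replicate 2 the lowest WT array for this mean, as for the clustered histones. Among the 9 erythroid markers tested, Runx3-/- replicate 1 was the highest Runx3-/- array for 4 and WT replicate 2 the lowest WT array for 7, and their part in the clustered values was not tested. Of the dendritic cell markers 2 of 10 tested were lower and 8 did not pass, with summed signals between 2651 and 4850 in Runx3-/- arrays and between 4762 and 8236 in WT arrays. Of the germinal centre and plasma cell markers 2 of 5 tested were lower, with sums between 120 and 125 in Runx3-/- arrays and between 229 and 306 in WT arrays. No marker is at 0 on this scale, since every probe set has a background signal.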

How the data were processed

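The authors labelled total RNA from 3 Runx3-/- and 3 WT samples for Affymetrix mouse Gene 1.0 ST arrays and deposited log2 values, which they had normalized by RMA with a GC correction in Partek. No version was found in the labels or methods, and the values themselves gave the log2 scale. Arrays carry no counting depth, and their number limits precision. Nothing was renormalized. limma 3.58.1 in R 4.3.3 (lmFit, eBayes, two-sided) was fitted to 12049 probe sets with a symbol that reached the array median in at least 1 array, with Benjamini-Hochberg adjustment over all of them. Of the table's probe sets 21789 had 1 symbol, 1621 several and 11989 none listed. The replicate unit was the array, genotype and number came from the titles, and p-values cover the spread between these samples. Named were histone probe sets past an adjusted p of 0.05, those at 1.5-fold with an unadjusted p under 0.05, the brightest clustered probe set per class, every variant probe set and the 4 lowest p values per accompanying list, with Slbp and Npat. Where a gene of those lists had several probe sets, the brightest with 1 symbol was used. The members and lists were chosen with earlier results of these data known. The fit was tested on simulated data.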

Additional observations from a re-analysis of the deposited data

How the results depend on the processing

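With limma's main settings 1 of 65 histone probe sets passed and 9 had an unadjusted p under 0.05. No histone probe set passed with the filter at the 25th percentile (0 of 74, 10 unadjusted), with probe sets lacking a symbol included (0 of 65, 7 unadjusted) or without moderated variances (0 of 65, 6 unadjusted), whereas 2 passed with an intensity trend (Hist2h4 and the H3f3a probe set 10360679), 1 without a filter on signal (that H3f3a probe set, with Hist2h4 lost) and 2 at 1.5-fold with an unadjusted p under 0.05. Leaving out 1 array gave between 0 and 5 histone calls, 5 without Runx3-/- replicate 1 and 0 without each of the others (4 to 16 unadjusted). Hist2h4 passed in 9 of 18 alternatives. Over all probe sets the 1221 calls became 635 with probe sets lacking a symbol and 200 without moderation, and leaving out 1 array gave 591 to 990. The clustered median ran from -0.49 to -0.12 when 1 array was left out, the variant median from -0.23 to -0.13, and the variant median was -0.12 with the filter at the 25th percentile and -0.032 without a filter. With probe sets that list the same symbols averaged, chosen after seeing the data, the clustered median was -0.18 and the variant median -0.19. Same-numbered arrays deviated together only weakly (correlations 0.191, 0.0241 and 0.0038 for replicates 1, 2 and 3), so the numbers were not taken to pair the samples, and with the replicate block 3 histone probe sets passed, Hist2h4, Hist1h1a and Hist4h4. Of the tested histone probe sets named by rule, 3 changed sign when 1 array was left out, none of them past the threshold under any setting: Hist1h2ak (from -0.29 to 0.068, above 0 without Runx3-/- replicate 2), the shared H3 probe set 10404065 (from -0.47 to 0.044, above 0 without Runx3-/- replicate 3) and H3f3b 10500896 (from -0.037 to 0.098, below 0 at -0.0049 without Runx3-/- replicate 1 and at -0.037 without WT replicate 3). The small number of arrays limits what could be detected, and a dim probe set may read mostly background.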
